A study of Homo sapiens with 30 samples.

Results

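The 10 genes described here, HDAC1 to HDAC10, encode the class I and class II histone deacetylases. They were taken by symbol from a table of PRO-Seq counts that lists 20367 gene symbols, and peaks of MYC ChIP-Seq and ATAC-Seq at their loci were added. PRO-Seq is a nuclear run-on assay that maps RNA polymerases engaged in transcription, so its counts report on transcription and not on mRNA or protein. The study compared reintroduction of SNF5, a core subunit of the SWI/SNF chromatin remodelling complex encoded by SMARCB1, with inhibition of MYC in G401, a malignant rhabdoid tumour line that lacks SNF5. The cells carried lentiviral, TET-inducible EGFP (the control), OmoMYC (a dominant-negative mutant of MYC) or SNF5 and were selected with G418. Cells of all 3 constructs, the EGFP control included, received 1 μg/ml doxycycline for 24 h. PRO-Seq and ATAC-Seq had 3 samples per construct and MYC ChIP-Seq had 2. All samples come from 1 cell line, and SNF5 and OmoMYC were expressed from introduced vectors, so the results describe that line 24 h after induction.

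Histone deacetylases remove acetyl groups from lysines of histone tails and of other proteins, and they oppose histone acetyltransferases. Class I (HDAC1, HDAC2, HDAC3, HDAC8) is mainly nuclear. HDAC1 and HDAC2 are the catalytic subunits of the SIN3, NuRD and CoREST corepressor complexes, and HDAC3 is that of the NCoR and SMRT complexes. Class IIa (HDAC4, HDAC5, HDAC7, HDAC9) has little deacetylase activity of its own, binds MEF2 transcription factors in the nucleus and is held in the cytoplasm by 14-3-3 proteins after phosphorylation. Class IIb holds HDAC6, a cytoplasmic enzyme that acts on tubulin, and HDAC10, a polyamine deacetylase. MYC binds DNA at E-boxes, of which CACGTG is the canonical form.

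Gene body totals of the 9 PRO-Seq samples ran from 28444943 to 46957634 counts and promoter-proximal totals from 518900 to 3386528, the lowest in the 3 samples with replicate number 1. SMARCB1, the gene behind the SNF5 construct, had at most 6 gene body counts in each EGFP and OmoMYC sample and at least 2870 in each SNF5 sample, as the labels say. MYC gene body counts rose with OmoMYC (log2 change 0.95, standard error 0.22, adjusted p = 0.0374, edgeR); whether reads from the introduced OmoMYC are among them was not tested. VIM, KRT8 and KRT18, markers of rhabdoid cells, were transcribed in every sample. Levels of 10 markers of blood, endothelial, epithelial, liver and neural cells are in gene body counts per kb and per 1000000 gene body reads. Of these, 8 stayed under 0.1, among them PECAM1, at 0 in every sample. The other markers were CDH1 (epithelium), with up to 0.244 in an SNF5 sample, and SYP (neural). SYP reached 1.31 in EGFP, 1.04 in OmoMYC and 0.350 in SNF5 samples. The summed level of the 10 markers ran from 0.179 to 1.53 in EGFP, from 0.281 to 1.31 in OmoMYC and from 0.206 to 0.707 in SNF5 samples. The 3 samples that share a replicate number deviated together, and the number was a term in every test. Replicate numbers of different assays name different samples. The study calls the samples of a construct biological replicates.

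MYC peaks lay within 1 kb of an annotated start at 3 of the 10 genes, all in EGFP samples. The sequence at their summits is shown because these are the MYC peaks called near HDAC starts. At HDAC2, MYC peaks were called in both EGFP samples. At HDAC4 and HDAC5 they were called in replicate 2, which had 5396 peaks against 940 in replicate 1. Among 19809 protein-coding genes, such a peak was found for 5.05% in both EGFP samples and for 26.0% in replicate 2. The 3 stretches below are from GRCh37, on the minus strand on which these genes lie, 5′ to 3′, with CACGTG in capitals. The HDAC2 stretch, chr6:114292570-114292770, is centred on the replicate 2 summit. The HDAC4 stretch, chr2:240323349-240323443, is the part of the summit window before the start, and the HDAC5 stretch, chr17:42201192-42201392, is centred on its summit.
HDAC2: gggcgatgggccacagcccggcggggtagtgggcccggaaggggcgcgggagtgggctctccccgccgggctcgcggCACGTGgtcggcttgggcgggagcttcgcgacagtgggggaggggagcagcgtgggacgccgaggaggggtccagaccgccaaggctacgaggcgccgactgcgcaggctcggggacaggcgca
HDAC4: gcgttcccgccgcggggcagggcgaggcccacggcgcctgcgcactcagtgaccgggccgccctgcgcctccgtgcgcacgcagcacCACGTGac
HDAC5: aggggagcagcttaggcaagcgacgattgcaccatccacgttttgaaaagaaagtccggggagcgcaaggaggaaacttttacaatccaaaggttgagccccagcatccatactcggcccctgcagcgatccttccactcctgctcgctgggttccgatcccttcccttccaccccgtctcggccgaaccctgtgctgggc

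The HDAC2 and HDAC4 stretches hold 1 CACGTG each and the HDAC5 stretch holds 0. At HDAC2 it spans 114292688 to 114292693 on chromosome 6, centred 8.5 bp from the replicate 1 summit and 20.5 bp from the replicate 2 summit. At HDAC4 it spans 240323351 to 240323356 on chromosome 2, centred 10.5 bp from the summit. Across all peaks, 51.3% of the 201 bp summit windows of EGFP replicate 1 and 26.1% of those of replicate 2 held the motif.

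MYC enrichment at the HDAC2 promoter was 7.44-fold over the local background in EGFP replicate 1 (−log10 q 11.6) and 14.3-fold in replicate 2 (−log10 q 42.3). The summits lay 361 and 349 bp before the nearest annotated start of HDAC2. The HDAC4 peak was 9.62-fold enriched (−log10 q 21.4) with its summit 5 bp after the start. The HDAC5 peak was weaker, at 4.86-fold (−log10 q 5.88), with its summit 222 bp before the start. No HDAC promoter had a MYC peak in an SNF5 or OmoMYC sample. The lists of those samples were short, with 137 and 27 peaks for SNF5 and 0 for OmoMYC in either replicate, and hold no read counts, so binding under the threshold of the peak caller was not measured.

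Within 10 kb of the HDAC genes, the other MYC peaks lay nearer to starts of other genes. A peak 4377 bp from the nearest HDAC1 start in EGFP replicate 2 was 320 bp from the start of MARCKSL1. Peaks 6792 and 6821 bp from the nearest HDAC3 start, in replicates 1 and 2, were 223 and 194 bp from a start of DIAPH1. Peaks at the far end of HDAC5 lay 38 and 24 bp from the start of G6PC3, a glucose-6-phosphatase, and there 1 SNF5 sample also had a peak, 6.86-fold enriched.

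HDAC6 and HDAC8, the 2 HDAC genes on the X chromosome, are listed at 0 in all 18 count columns. Of the 848 transcripts listed on that chromosome, 321 (37.9%) are at 0 throughout, against 6.67% of autosomal transcripts. UBA1, PGK1, RPL10 and KDM5C, which most cells transcribe, are among those at 0 on the X chromosome. RPS4X, HPRT1, DDX3X and EIF2S3, also on that chromosome, are not, with summed counts from 11699 to 58533. No level, change or absence can be given for HDAC6 or HDAC8 from these counts. The ATAC-Seq samples gave a reading on them: a peak lay within 1 kb of an HDAC6 start in all 9 samples, and within 1 kb of an HDAC8 start in SNF5 replicates 1 and 2 and no other sample.

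The other 8 genes had gene body counts in every sample and passed the minimum mean of 10 counts. Their levels in EGFP cells are given on the same scale, counts per kb and per 1000000 gene body reads, which allows a comparison between genes. HDAC10 had the highest level, with 6.16, 4.95 and 6.22 in replicates 1 to 3. HDAC7 followed with 3.42, 2.94 and 4.60, and HDAC2 with 3.33, 3.18 and 2.68. The ranges of HDAC7 and HDAC2 overlapped, so their order was not resolved. HDAC1 had 2.35, 1.55 and 2.39, and HDAC3 had 2.15, 2.12 and 2.16, which lay within the range of HDAC1. HDAC5 had 1.90, 1.20 and 1.03. HDAC4 had 0.790, 0.651 and 0.997. HDAC9 was lowest, with 0.162, 0.275 and 0.0276. Among all genes tested, these medians ran from percentile 93.4 (HDAC10) through 49.7 (HDAC5) to 22.9 (HDAC9). For HDAC9 the level and its place as lowest are uncertain, since the level is per kb of the whole listed gene body. Of that gene body, 72.5% lies before a start 422 kb downstream that had an ATAC-Seq peak in all 9 samples. Where transcription of HDAC9 begins was not tested. For HDAC10 the level is uncertain, since MAPK12 lies upstream on the same strand, with its listed end 1496 bp before the HDAC10 start, and annotated transcripts of MAPK12 run through 5956 bp of HDAC10.

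With SNF5, HDAC9 was the 1 HDAC gene whose gene body transcription rose, and HDAC1, HDAC3, HDAC4 and HDAC7 fell by small amounts. These 5 genes passed an adjusted p of 0.05 (edgeR's quasi-likelihood test with Benjamini-Hochberg adjustment over 15060 genes), out of 8 tested. In this comparison 34.4% of all genes tested passed, 17.3% higher and 17.1% lower. The median log2 change of the 8 HDAC genes was −0.23, against −0.03 over all genes. A total of 5 of the 8 moved in 1 direction in all 3 replicate numbers, as 59.2% of all genes did. In counts from whole cultures, fewer transcribing cells and fewer polymerases per cell cannot be told apart.

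**Figure D1:**
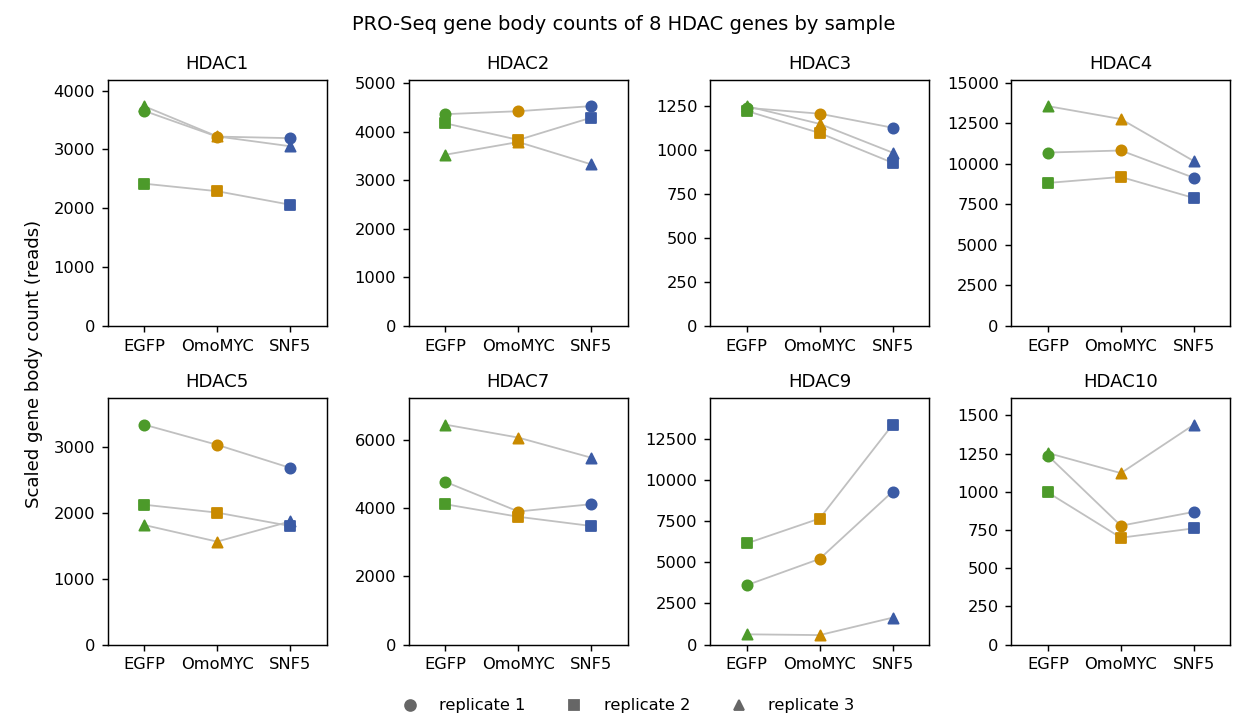
PRO-Seq gene body counts of the 8 HDAC genes with counts, scaled for depth (reads, linear axis from 0, a scale of its own in each panel), for EGFP, OmoMYC and SNF5. Each point is 1 sample, its shape gives the replicate number and grey lines join samples of the same number. HDAC9 rises to the SNF5 samples along all 3 lines, while its replicate 3 samples lie far below the others in every construct.

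HDAC9, a class IIa member, lies on chromosome 7, and the transcript listed for it spans 582 kb (hg19 18126572 to 18708466). Its gene body counts, scaled for depth, were 3606, 6148 and 620 in EGFP replicates 1 to 3. They were 5208, 7665 and 573 in OmoMYC samples, and 9304, 13376 and 1635 in SNF5 samples. SNF5 samples were higher than the EGFP sample of the same number every time, by 2.58-fold, 2.18-fold and 2.64-fold. The EGFP and SNF5 groups overlapped, and all 3 samples with number 3 were far lower than the rest. The log2 change with SNF5 was 1.30 (standard error 0.13, adjusted p = 0.000203), a 2.46-fold rise. Without the samples of number 3 it was 1.23 (adjusted p = 2.0e-10). With OmoMYC the change was 0.27 (standard error 0.13, adjusted p = 0.189), from 1 lower and 2 higher replicate numbers, and it passed without OmoMYC replicate 3 (0.45, adjusted p = 0.0122). SNF5 samples were 2.03-fold above OmoMYC samples (log2 difference 1.02, standard error 0.13, adjusted p = 0.000881). Without the replicate term the SNF5 change was 1.23 with an adjusted p of 0.685.

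HDAC9 had 0 to 5 promoter-proximal counts per sample in the table, under the minimum, so neither its promoter-proximal counts nor its pausing index was tested. GENCODE annotates 31 starts of HDAC9, and ATAC-Seq peaks lay near a few of them. The listed start, the most upstream of the 31, had a peak nearby in SNF5 replicate 1 and in no other sample. A start 422 kb downstream had a peak in all 9 samples, at chr7:18508990-18509511 of GRCh38. In the cluster of starts 409 kb downstream, a site 15 bp and a site 8 bp from a start each had a peak in 1 SNF5 sample, as did a site 687 bp from the start at 422 kb. Of the gene body over which reads were counted, 72.5% lies before that downstream start.

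The 250 bases before the RefSeq start nearest to each of the listed and the 422 kb start are shown because these places differ in openness and in composition. The nearest RefSeq start lies 124 bp upstream of the listed start and 3 bp upstream of the 422 kb start. Both are from RefSeq on GRCh38, plus strand, 5′ to 3′, with GC boxes (GGGCGG or CCGCCC) in capitals. The first stretch is chr7:18086575-18086824 and the second is chr7:18509020-18509269.
HDAC9 RefSeq start near the listed start: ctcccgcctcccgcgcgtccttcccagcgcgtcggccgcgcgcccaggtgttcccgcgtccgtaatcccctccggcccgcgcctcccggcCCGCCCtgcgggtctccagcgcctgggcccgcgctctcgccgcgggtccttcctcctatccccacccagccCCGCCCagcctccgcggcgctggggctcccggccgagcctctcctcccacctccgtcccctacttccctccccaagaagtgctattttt
HDAC9 RefSeq start near the open start: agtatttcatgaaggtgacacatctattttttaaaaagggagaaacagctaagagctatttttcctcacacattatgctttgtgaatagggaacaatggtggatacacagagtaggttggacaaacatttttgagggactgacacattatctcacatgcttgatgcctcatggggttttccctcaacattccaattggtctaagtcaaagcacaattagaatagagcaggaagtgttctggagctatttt

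In windows from 250 bases before to 50 after a start, the first of these RefSeq starts had 75.0% G and C and 3 GC boxes, and the second 40.0% and 0. RefSeq promoters were at hand for 9 of the 10 genes, in 19 windows. All motifs were searched on both strands, and a match of 1 motif could overlap that of another. GC boxes occurred in 8 of those 19, against 45.0% of 35116 windows of all genes. CACGTG occurred in 1, at HDAC4, against 7.26% of all windows. The AP-1-like letters TGANTCA, with any base at N, occurred in 2 of 19 windows, against 7.71% of all windows. These 2 windows overlap at HDAC9 and share the same match, TGATTCA. The AP-1 motifs that the study reports have C or G at that place. A match describes the sequence and does not show that a factor was bound.

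Of the members that fell with SNF5, HDAC3 separated the groups. Its scaled gene body counts were 1241, 1223 and 1250 in EGFP, 1207, 1097 and 1149 in OmoMYC and 1127, 928 and 986 in SNF5 samples. All SNF5 samples were below all EGFP samples, as were all OmoMYC samples by a narrow margin. Among all genes, 19.1% had SNF5 and EGFP samples that did not overlap, and 11.5% had OmoMYC and EGFP samples that did not. With SNF5 HDAC3 decreased by 18.3% (log2 change −0.29, standard error 0.08, adjusted p = 0.0165). The adjusted p was 0.0926 without EGFP replicate 2, 0.103 without SNF5 replicate 2 and 0.0590 with the 6 compared samples alone. With OmoMYC the log2 change was −0.11 (standard error 0.08, adjusted p = 0.382).

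HDAC4, the longest of the measured class IIa loci after HDAC9, had scaled gene body counts of 10689, 8817 and 13550 in EGFP and 10815, 9184 and 12753 in OmoMYC samples. In SNF5 samples it had 9132, 7888 and 10157. The groups overlapped, and each SNF5 sample was below the EGFP and OmoMYC samples of its number. HDAC4 decreased by 17.0% with SNF5 (log2 change −0.27, standard error 0.06, adjusted p = 0.00787). It was also lower in SNF5 than in OmoMYC samples (−0.26, standard error 0.06, adjusted p = 0.0135), with an adjusted p of 0.0750 without OmoMYC replicate 1 and 0.0787 without OmoMYC replicate 2. The OmoMYC change was −0.01 (standard error 0.06, adjusted p = 0.962), or 0.05 when EGFP replicate 3 was left out.

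HDAC1, the nuclear class I enzyme, had scaled gene body counts of 3657, 2419 and 3737 in EGFP, 3219, 2291 and 3222 in OmoMYC and 3192, 2061 and 3055 in SNF5 samples. Replicate number 2 was low in every construct, and the groups overlapped. HDAC1 decreased by 15.3% with SNF5 (log2 change −0.24, standard error 0.06, adjusted p = 0.0119), by 12.7%, 14.8% and 18.2% within numbers 1 to 3. The adjusted p was 0.0534 without EGFP replicate 1 and 0.0743 without SNF5 replicate 2.

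HDAC7, another class IIa member, had 4770, 4113 and 6447 in EGFP, 3900, 3745 and 6067 in OmoMYC and 4115, 3475 and 5476 in SNF5 samples. Number 3 was high in every construct, and the groups overlapped. It decreased by 14.8% with SNF5 (log2 change −0.23, standard error 0.06, adjusted p = 0.0175). The adjusted p was 0.0928 without EGFP replicate 1, 0.0706 without EGFP replicate 2 and 0.0939 without SNF5 replicate 2.

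None of these 5 calls held without the replicate term. The adjusted p was then 0.717 for HDAC1, 0.281 for HDAC3, 0.553 for HDAC4 and 0.759 for HDAC7. With all samples of number 1 or of number 2 left out, HDAC9 was the 1 gene of the 5 that passed, with log2 changes of 1.26 and 1.40. All 5 passed without number 3.

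The other 3 genes did not pass with SNF5. HDAC2, the partner of HDAC1 in its complexes, had scaled gene body counts of 4358, 4170 and 3524 in EGFP and 4524, 4288 and 3325 in SNF5 samples. The log2 change was 0.00 (standard error 0.07, adjusted p = 0.964), higher in 2 of 3 numbers, and its sign changed when samples were left out. HDAC5 ran from 1819 to 3347 in EGFP and from 1804 to 2689 in SNF5 samples, a log2 change of −0.17 (standard error 0.09, adjusted p = 0.170), or −0.30 without SNF5 replicate 3 (adjusted p = 0.0048).

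With OmoMYC, 0 of 8 HDAC genes passed in gene bodies by edgeR, where 8.49% of all genes tested did. A total of 3 had an unadjusted p under 0.05, and DESeq2 called 1, HDAC10. Their median log2 change was −0.13, against 0.00 over all genes, and 5 of the 8 moved in 1 direction in all 3 replicate numbers, against 54.2% of all genes. Both constructs were compared with the same 3 EGFP samples, so their changes are not independent. Between SNF5 and OmoMYC samples directly, HDAC9 and HDAC4 passed, 2 of 8, against 19.0% of all genes. In that comparison 5 of 8 moved in 1 direction in all 3 numbers, against 56.2% of all genes, and 0 of 8 had groups that did not overlap, against 14.6%.

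HDAC10 had scaled gene body counts of 1237, 996 and 1254 in EGFP, 778, 699 and 1122 in OmoMYC and 869, 761 and 1440 in SNF5 samples. All OmoMYC samples were below the EGFP sample of their number, while SNF5 replicate 3 was the highest of all 9 samples. The OmoMYC change was −0.45 (standard error 0.13, adjusted p = 0.0594). DESeq2 gave an adjusted p of 0.0119, the 6 compared samples alone gave 0.0361 and no filter on counts gave 0.0490. Without EGFP replicate 3 it was −0.63 (adjusted p = 0.00479). With SNF5 the change was −0.23 (standard error 0.13, adjusted p = 0.189), and without number 3 it was −0.46 (adjusted p = 0.000201). MAPK12, whose transcripts overlap HDAC10, changed by −0.32 with SNF5 (standard error 0.09, adjusted p = 0.0189) and by −0.25 with OmoMYC (standard error 0.09, adjusted p = 0.0956). Reads of the 2 genes cannot be told apart where they overlap.

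**Figure D2:**
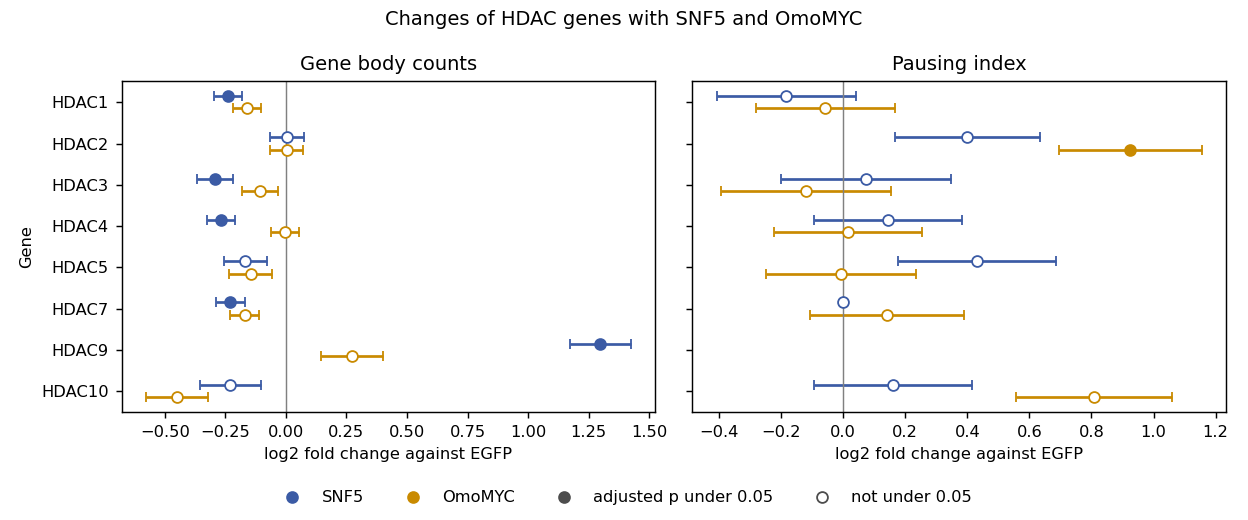
Log2 change in gene body counts (left) and pausing index (right) of the tested HDAC genes, with SNF5 and with OmoMYC against EGFP. Points are estimates from the model over all 9 samples, with filled points passing an adjusted p of 0.05. Bars are 1 approximate standard error, the absolute log2 change over the square root of the F value of the test. No bar is drawn for the pausing index of HDAC7 with SNF5, whose change was 0.00, where this error is not defined. HDAC9 stands at 1.30 in gene bodies with SNF5, and HDAC2 at 0.93 in pausing index with OmoMYC.

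HDAC2 gained polymerases near its promoter with OmoMYC, and its gene body counts did not change beyond their error. Promoter-proximal counts come from the densest 50 bp window near a start, no more than 500 bp from it, and the pausing index is their density over that of the gene body. Unscaled promoter-proximal counts of HDAC2 were 26, 221 and 166 in EGFP and 43, 444 and 319 in OmoMYC samples. In SNF5 samples they were 34, 361 and 224. The OmoMYC samples were higher than the EGFP sample of the same number every time, by 1.65-fold, 2.02-fold and 1.91-fold after scaling. The groups overlapped, and number 1, with the smallest promoter-proximal totals, was low in all constructs.

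The log2 change of HDAC2 promoter-proximal counts with OmoMYC was 0.92 (standard error 0.22, adjusted p = 0.0246). It was the 1 of 7 HDAC genes tested that passed, as 1.75% of 11241 genes did. Its pausing index was 4.47, 46.1 and 26.4 in EGFP and 7.29, 101 and 46.9 in OmoMYC samples, higher in each number with overlapping groups. That rise was 0.93 (standard error 0.23, adjusted p = 0.0191), again 1 of 7 genes, against 2.26% of 11171 genes. Over all genes tested, the median log2 change with OmoMYC was 0.12 in promoter-proximal counts and 0.14 in pausing index.

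The HDAC2 calls were lost without samples of replicate number 2 or OmoMYC replicate 1. Without EGFP replicate 2 the pausing index change was 0.85 (adjusted p = 0.529), without OmoMYC replicate 2 it was 0.79 (adjusted p = 0.420), and without OmoMYC replicate 1 it was 0.94 (adjusted p = 0.0808). For promoter-proximal counts these adjusted p values were 0.603, 0.342 and 0.0662. Without the replicate term both were 1. In the SNF5 samples the HDAC2 pausing index was 4.82, 60.7 and 39.1, higher than EGFP in each number. The log2 changes with SNF5 were 0.40 for promoter-proximal counts (standard error 0.22, adjusted p = 0.301) and 0.40 for the index (standard error 0.23, adjusted p = 0.357). SNF5 samples differed from OmoMYC samples by −0.52 in promoter-proximal counts (standard error 0.21, adjusted p = 0.252), so a difference between the constructs was not shown. HDAC2 was also the HDAC gene with MYC peaks at its promoter in both EGFP samples. A link between these peaks and the change with OmoMYC was not tested. An antisense gene, HDAC2-AS2, overlaps the HDAC2 locus on the other strand. The promoter-proximal window was counted on the coding strand, and the strand setting of gene body counts is not given in the sources used here.

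**Figure D3:**
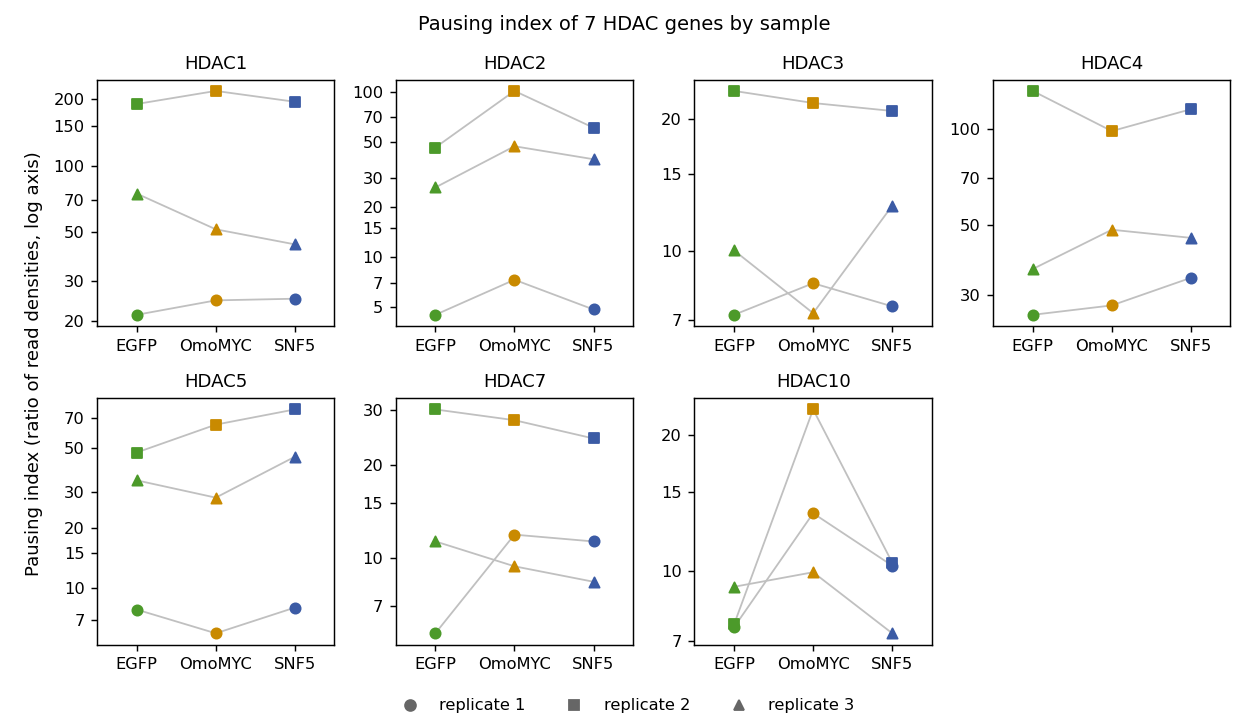
Pausing index of the HDAC genes (promoter-proximal density over gene body density, log axis, a scale of its own in each panel) in EGFP, OmoMYC and SNF5 samples. Each point is 1 sample, shapes give replicate numbers and grey lines join samples of the same number. HDAC2 rises from EGFP to OmoMYC along all 3 lines, from 4.47, 46.1 and 26.4 to 7.29, 101 and 46.9.

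The pausing index of HDAC10 was 7.53, 7.63 and 9.25 in EGFP, 13.4, 22.8 and 9.96 in OmoMYC and 10.3, 10.5 and 7.30 in SNF5 samples. All OmoMYC samples were above all EGFP samples, replicate 3 by the smallest margin. The share of all genes with such a separation was not computed for the pausing index, so no weight is put on it. The OmoMYC change was 0.81 (standard error 0.25, adjusted p = 0.0698) and passed without EGFP replicate 3 (1.15, adjusted p = 0.00885) or OmoMYC replicate 3 (1.06, adjusted p = 0.0351). The SNF5 change was 0.16 (standard error 0.25, adjusted p = 0.794), or −0.08 when EGFP replicate 2 was left out.

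With SNF5, 0 of 7 HDAC genes passed by edgeR in promoter-proximal counts, where 4.3% of all genes did, or in pausing index, where 3.66% did. None had an unadjusted p under 0.05 in either measure, and DESeq2 called 0. Their log2 changes ran from −0.44 to 0.40 in promoter-proximal counts and from −0.18 to 0.43 in pausing index. Between SNF5 and OmoMYC samples, 0 of 7 passed in promoter-proximal counts (0.836% of all genes) and in pausing index (1.23%), with 1 and 2 genes at an unadjusted p under 0.05 and 0 calls by DESeq2. HDAC1, HDAC3, HDAC4, HDAC5 and HDAC7 had OmoMYC changes in promoter-proximal counts from −0.23 to 0.01. The index of HDAC1 ran from 21.2 to 217 over the 9 samples, that of HDAC4 from 26.1 to 131 and that of HDAC3 from 7.18 to 23.1.

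Chromatin at the HDAC promoters was open in most samples. A total of 5 promoters, those of HDAC1, HDAC2, HDAC4, HDAC6 and HDAC9, had an ATAC-Seq peak within 1 kb of an annotated start in all 9 samples, as 27.3% of 19809 protein-coding genes did. The HDAC3 promoter had a peak in 3 EGFP, 1 OmoMYC and 3 SNF5 samples. HDAC5 had 2, 2 and 3, and HDAC7 had 2, 1 and 3. HDAC10, which had the highest PRO-Seq level, had a promoter peak in 1 SNF5 sample and in no other.

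The number of peaks per ATAC-Seq sample differed between constructs and bears on every count of sites. It was 12484, 17817 and 9208 in EGFP, 7260, 23684 and 12224 in OmoMYC and 33596, 26604 and 22722 in SNF5 samples. Within 10 kb of the 10 genes, overlapping peaks formed 41 sites, 18 of them at HDAC9 and 6 present in all 9 samples. A site counted as gained with peaks in all 3 samples of a construct and in 0 of 3 EGFP samples. With SNF5, 6 of the 41 sites were gained, where 9.09% of all 40005 sites were, and 0 were lost, where 0.0075% of all sites were. Of these 6, 3 were at HDAC9, 2 at HDAC2 and 1 at HDAC7, and 4 lay more than 1 kb from a start. With peaks of −log10 q of at least 10, or with each sample cut to its 7260 strongest peaks, 0 were gained. With OmoMYC, 0 sites were gained, against 0.0275% of all sites, and 0 were lost, against 0.0175%. With 7260 peaks a sample, 1 site at HDAC2 was lost with OmoMYC.

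**Figure D4:**
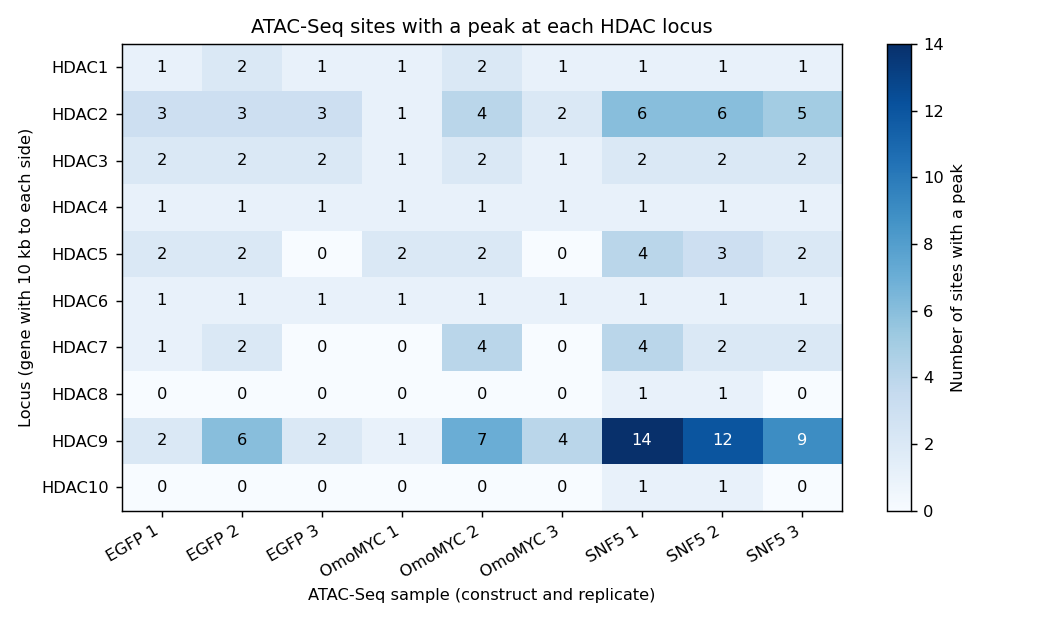
Number of ATAC-Seq sites with a peak at each HDAC locus (the gene with 10 kb on each side) in each of the 9 samples, with the count printed and shaded. At HDAC9 the SNF5 samples have 14, 12 and 9 sites with a peak, against 2, 6 and 2 in EGFP and 1, 7 and 4 in OmoMYC samples. Total peak numbers were 22722 to 33596 in SNF5, 9208 to 17817 in EGFP and 7260 to 23684 in OmoMYC samples.

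At HDAC9, 14, 12 and 9 sites had a peak in the SNF5 samples, 2, 6 and 2 in EGFP and 1, 7 and 4 in OmoMYC samples. Every SNF5 sample exceeded every other sample, as also at HDAC2, with 6, 6 and 5 sites in SNF5 samples against at most 4 in the others. How many loci of other genes separate in this way was not computed. Of the 18 HDAC9 sites, 11 had peaks in SNF5 samples alone, as had 18 of the 41 sites at the 10 loci. That share was not computed over all sites, so the count is not shown to be particular to HDAC9. The 3 gained sites lay 266, 497 and 607 kb after the listed start, and the last also had a peak in 1 OmoMYC sample. The part of total peak number in these counts was not tested beyond the cut to 7260 peaks, under which 0 HDAC9 sites were gained.

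**Figure D5:**
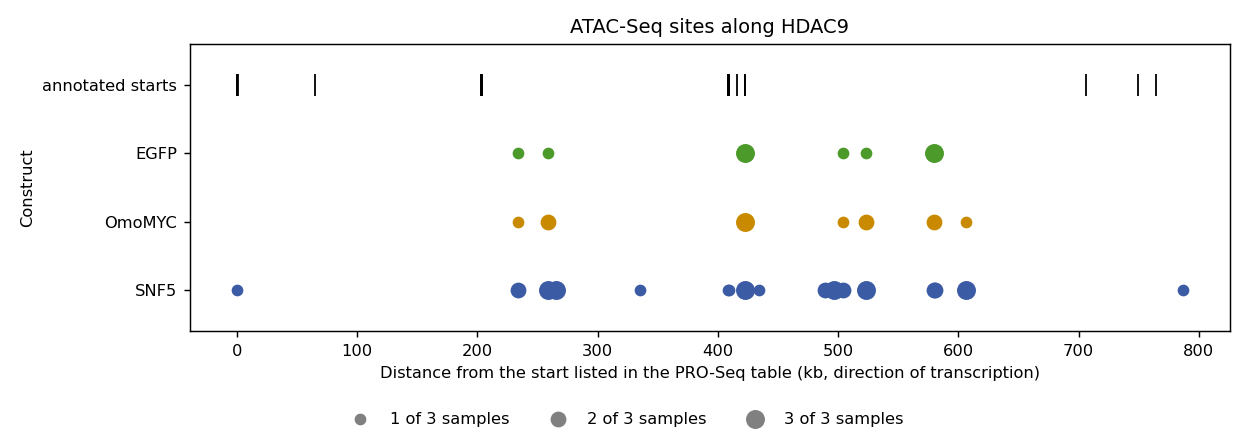
ATAC-Seq sites along HDAC9 by distance from the listed start (kb), with dot size for the number of EGFP, OmoMYC or SNF5 samples (1 to 3) that had a peak and ticks for annotated starts. The site at 422 kb has a peak in 3 samples of each construct, while the listed start at 0 kb has a peak in 1 SNF5 sample.

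At HDAC2 the 2 gained sites lay at chr6:113970303-113970733, beside the promoter site that was open in all 9 samples, and at chr6:113995702-113996005 of GRCh38. When sites were matched by summits within 150 bp, 1 site at HDAC2 was gained. At HDAC7 the gained site, chr12:47812869-47813290, had fold enrichments from 4.53 to 5.05 in the SNF5 samples and of 5.07 in OmoMYC replicate 2.

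Lists of genes that act with or against the HDAC proteins were compared in gene bodies, with the same test. Among all genes tested, 17.3% were higher and 17.1% lower with SNF5, and the list counts are to be read beside these shares. Of the 34 tested subunits of HDAC1 and HDAC2 complexes, 3 rose and 10 fell with SNF5, with a median log2 change of −0.11 against −0.03 over all genes. The largest changes were in CHD5 (−0.64, adjusted p = 0.000137), a NuRD remodeller, HMG20B (−0.56, adjusted p = 0.00401) and RCOR2 (−0.44, adjusted p = 0.0145), both of CoREST, and SAP30 (0.56, adjusted p = 0.0217) of SIN3. With OmoMYC 1 of the 34 changed, ZNF217 (−0.40, adjusted p = 0.0332). Of the 6 HDAC3 complex genes, 3 rose with SNF5, CORO2A (0.39), TBL1XR1 (0.30) and TBL1X (0.26), and GPS2 fell (−0.50, adjusted p = 0.0205). TBL1XR1 fell with OmoMYC (−0.23, adjusted p = 0.0418).

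Of 20 class IIa partners, kinases and targets, 5 rose and 3 fell with SNF5, with a median of 0.00. CAMK4 (2.36, adjusted p = 0.00371) and PRKD1 (1.41, adjusted p = 0.00152), kinases that phosphorylate class IIa HDACs, rose. MEF2C (1.00, adjusted p = 0.00408), a transcription factor that class IIa HDACs bind, also rose, while SIK1 fell (−0.37, adjusted p = 0.0181). With OmoMYC 1 of the 20 rose, MEF2A (0.31, adjusted p = 0.0332). Of the 8 sirtuin and class IV genes, SIRT7 fell with SNF5 (−0.52, adjusted p = 0.00201) and 0 changed with OmoMYC, with HDAC11 at 0.13 (standard error 0.09, adjusted p = 0.282) and 0.17 (standard error 0.09, adjusted p = 0.242).

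Of 17 histone acetyltransferases tested, 3 rose and 1 fell with SNF5, with a median of −0.03. KAT2B rose with both constructs, by 0.83 with SNF5 (adjusted p = 0.00197) and by 0.80 with OmoMYC (adjusted p = 0.0204). NCOA3 (0.40) and NCOA1 (0.31) rose and KAT5 fell (−0.41, adjusted p = 0.00649) with SNF5. Of 22 genes listed as readers of acetyl-lysine, 3 rose and 6 fell with SNF5, with a median of −0.08. Whether each listed protein binds acetyl-lysine was not checked. MLLT3 rose (1.84, adjusted p = 0.00013), and BRD9 (−0.37), TRIM28 (−0.37) and BRD3 (−0.37) fell. With OmoMYC 3 acetyltransferases rose and 2 readers fell, BRD9 (−0.31, adjusted p = 0.0302) and ZMYND8 (−0.18, adjusted p = 0.0442).

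Between SNF5 and OmoMYC samples, 4 of the 20 class IIa partners were higher with SNF5 and 1 was lower, with CAMK4 (1.79) and PRKD1 (0.83) among those higher. TBL1XR1 (0.53) was higher among HDAC3 complex genes. Of the HDAC1 and HDAC2 complex genes 2 were higher and 3 lower, among them CHD5 (−0.56). Of the sirtuin genes 2 were lower, SIRT3 (−0.39) and SIRT7 (−0.27). Of the acetyltransferases 1 was higher and 1 lower, and of the readers 2 were higher, MLLT3 (1.28) among them, and 1 lower. In promoter-proximal counts, ZNF217 fell with SNF5 (−1.07, adjusted p = 0.00435) and with OmoMYC (−0.83, adjusted p = 0.0481), and SAP30 rose with OmoMYC (0.92, adjusted p = 0.0481). SAP30 was lower in SNF5 than in OmoMYC samples in promoter-proximal counts (−0.96, adjusted p = 0.0479) and in pausing index (−1.31, adjusted p = 0.00604), as was TRIM24 in pausing index (−0.90, adjusted p = 0.0334). In pausing index, GATAD2B (1.00) and YWHAQ (0.88) rose with OmoMYC. Among all genes, 3.98% were higher and 4.52% lower with OmoMYC in gene bodies, and 11.4% higher and 7.56% lower in SNF5 than in OmoMYC samples.

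Genes with the pattern most like each member were found from the Pearson correlation of log2 gene body counts over the 9 samples, after the mean of each replicate number was removed. The values describe these 9 samples, which share scaling and constructs. HDAC9 was most like TAB2 (0.996), COG5 (0.996) and SH3KBP1 (0.995), and 455 genes exceeded 0.95 with it. HDAC2 had 2 genes above 0.95, ARHGAP18 (0.963) and SPCS3 (0.957). For the members that fell with SNF5, the most alike were EVC for HDAC1 (0.992), LOC257396 for HDAC3 (0.996), NEIL1 for HDAC4 (0.997) and COQ10A for HDAC7 (0.995). HDAC5 was most like NKD2 (0.990). HDAC10 was most like PVT1 (0.996).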

How the data were processed

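The PRO-Seq table holds, per RefSeq transcript and sample, promoter-proximal and gene body read counts as deposited, with gene body density, a coverage signal in reads per bp that the authors computed. Per the methods of the study, reads were trimmed with Cutadapt, those longer than 15 bp were reverse complemented and aligned to hg19 with Bowtie2, rRNA reads and reads of mapping quality under 10 were removed, and NRSA counted 50 bp promoter-proximal windows within 500 bp of a start and gene bodies from 1 kb after it. Peak lists of MYC ChIP-Seq (hg19, q 0.01) and ATAC-Seq (hg38, q 0.001) were made by the authors with MACS2 for each sample and give fold enrichment, −log10 p and q and a score as deposited. IgG samples were not analysed here.

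From each symbol the transcript with most counts was kept, and genes with a mean of at least 10 counts were tested. Counts were fitted with edgeR 4.0.16 (R 4.3.3, quasi-likelihood) over all 9 samples with terms for construct and replicate number, scaled by gene body totals and RLE factors. For the pausing index, both regions entered a single fit with 1 term per sample, and the region by construct term was tested. P-values were adjusted (Benjamini-Hochberg) over all genes, with a threshold of 0.05. Standard errors are approximate: each is the absolute log2 change divided by the square root of the F value of the test. Overlapping ATAC-Seq peaks were merged into sites, starts came from GENCODE 44 in each build, and promoter sequences came from RefSeq. No coordinates were converted.

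The pairing by replicate number was checked before the fits were compared: over 9 pairs, samples of the same number had deviations from their construct means that correlated at 0.837 to 0.926 in gene bodies and 0.693 to 0.936 in promoter-proximal counts, against −0.729 to 0.183 and −0.823 to 0.190 for different numbers. Why same-numbered samples vary together is not given in the labels. Exact permutation of 3 against 3 samples could not give a p below 0.1, so no single-value test was used. On simulated data with 200 genes changed 2-fold between SNF5 and EGFP, the test recovered 78.0% of them in gene bodies (15060 genes), 58.5% in promoter-proximal counts (11241) and 40.0% in pausing index (11171), and 7.69%, 2.5% and 2.44% of its calls were false. Without the replicate term it recovered 27.5%, 0% and 0%. The simulated counts were drawn around the means of each replicate number, so this loss was built in and is no test of the term. Alternatives were no replicate term, TMM scaling, promoter-proximal RLE scaling, DESeq2 1.42.0, other count minimums, the 6 compared samples alone, other peak thresholds and samples left out in turn.

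The HDAC genes and the partner lists were chosen with earlier results of these data known. All HDAC genes are described. In each partner list and comparison up to 4 genes past the threshold with the largest log2 change could be named, and for likeness the 3 genes with the highest correlation after 0.5 was added to counts.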

Additional observations from a re-analysis of the deposited data

How the results depend on the processing

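Of 551 alternative values for single HDAC genes (8 genes in gene bodies, and HDAC2 and HDAC10 alone in promoter-proximal counts and pausing index), 464 kept their direction and side of the threshold, 37 lost a call, 18 gained one and 32 changed sign. Without the replicate block, the calls went from 5 (SNF5 against EGFP) and 2 (SNF5 against OmoMYC) in gene bodies, and from 1 each for OmoMYC in promoter-proximal counts and pausing index, to 0. Over all genes the gene body calls then fell from 5181 to 223 with SNF5, from 1279 to 1 with OmoMYC and from 2858 to 75 between them, and to 0 in promoter-proximal counts (from 483, 197 and 94) and pausing index (from 409, 252 and 137). The pairing was seen in the data and is not explained by the labels.

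With samples left out, calls among HDAC genes in gene bodies ran from 1 to 7 with SNF5, from 0 to 4 with OmoMYC and from 1 to 3 between them. With OmoMYC they ran from 0 to 1 in promoter-proximal counts and from 0 to 2 in pausing index, counted over all 7 genes tested. DESeq2, no filter on counts and the 6 compared samples alone each called 1 gene in gene bodies with OmoMYC, HDAC10. Over all genes, leaving out samples moved gene body calls to 1450 to 8565, 2 to 6756 and 741 to 6253 in the same order, promoter-proximal calls to 51 to 1289, 3 to 827 and 26 to 496, and pausing calls to 9 to 944, 0 to 954 and 9 to 471. With OmoMYC, gene body calls were 2097 by DESeq2 and 1964 with 6 samples. DESeq2 called 312, 134 and 62 genes in promoter-proximal counts and 101, 69 and 40 in pausing index. Promoter-proximal calls with no filter were 807, 298 and 266. Promoter-proximal scaling gave 1041 promoter-proximal and 804 pausing calls with SNF5. A minimum mean of 50 gave 325 promoter-proximal calls with SNF5 and 37 between constructs. With 6 samples, pausing calls were 177 with SNF5 and 348 between constructs, where promoter-proximal calls were 291.

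Values close to 0 changed sign. HDAC2 gene body changes with OmoMYC were −0.00217 without the block, −0.000429 with 6 samples and −0.0725 to 0.0743 with samples left out. With SNF5 they were −0.0347 to 0.0726, and between constructs −0.00342 with TMM, −0.00441 with 6 samples and −0.0718 to 0.0925. With samples left out, HDAC4 with OmoMYC ran from −0.0430 to 0.0529, HDAC5 between constructs from −0.170 to 0.0550, and HDAC10 with SNF5 from −0.235 to 0.0907 in promoter-proximal counts and from −0.0773 to 0.506 in pausing index.

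MYC peaks at HDAC promoters numbered 1 in both EGFP samples, 3 in replicate 2 alone and 1 in replicate 1 alone. ATAC-Seq sites gained with SNF5 were 0 at −log10 q of at least 10 and 0 with 7260 top peaks per sample, and 5 to 11 with a replicate number left out. Sites lost with OmoMYC were 1 with top peaks and 0 to 2 with a number left out. The cause of these changes was not tested. Promoter-proximal depth, lowest in number 1, limits the pausing results, and peak lists without read counts limit the MYC and ATAC-Seq results.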
